A study of Mus musculus with 8 samples.

Results

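The circadian clock genes Clock, Arntl (also called Bmal1), Per1, Per2, Per3, Cry1, Cry2, Nr1d1, Nr1d2 and Dbp were examined in DC-restricted progenitors (CDPs) of the bone marrow. They were chosen by symbol, and all 10 were found by Ensembl identifier among the 16119 genes of the count table. CDPs are the progenitors that give rise to conventional and plasmacytoid dendritic cells. They were flow-sorted as Lin-, c-kit intermediate, Sca1 low, CD115+ and Flt3+ cells from the marrow of C57BL/6 mice with diet-induced obesity (labelled DIO) after 16 weeks on a high fat diet (HFD; 60 kcal% fat), or of age-matched DIO-Control mice on chow (CF; 10 kcal% fat). About 50000 cells entered each of 8 libraries, 4 per diet. According to the methods the mice were C57BL/6J males, 16 weeks old at purchase, and the replicates were isolated in parallel. Neither the hour at which marrow was taken nor the number of mice behind a library is given in the sources used here, so p-values measure only the spread between these libraries.

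The clock is a feedback loop of transcription that runs in nearly every cell with a period of about a day. CLOCK and ARNTL bind E-box sequences as a pair and switch on the Per and Cry genes, whose proteins then block that pair. The same pair drives Nr1d1 and Nr1d2, which encode the REV-ERB repressors of Arntl, and Dbp, an activator that acts through D-box sequences. Arntl therefore peaks when Nr1d1 and Dbp are low in most tissues. In bone marrow the clock is known for setting daily rhythms in the release of leukocytes and progenitors.

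Total counts were 28203651 to 38969160 per library in HFD and 32575696 to 48409689 in CF, and the 10 clock genes together received 1965 to 2709 counts per library. The transcripts for the surface markers of the sort, Kit, Flt3, Csf1r and Ly6a, were above 1 CPM (counts scaled to a common library total, here corrected for composition by TMM) in 8 of 8 libraries. HFD replicate 1 stood apart from the other libraries. Its Flt3 was 88.8 CPM, against 227 to 378 CPM in the others, and the summed level of 8 neutrophil genes was 18771 CPM, against 884 to 6119 CPM. All 8 neutrophil genes were present at 1 CPM or more in every library. Where it turns the sign of a clock gene result or moves it by over 1.5 times, the value without it is given as well.

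No clock gene was called different between HFD and CF. Of the 10 genes, 7 had a higher and 3 a lower estimate in HFD, and their median log2 fold change was 0.11, against 0.055 over the 15837 genes tested, of which 59.7% had a higher estimate. Without HFD replicate 1, 4 of the 10 were higher and the median was -0.036, against 0.029 and 54.2% higher over all genes. At an adjusted p below 0.05 in edgeR's quasi-likelihood test, 0 of the 10 were called, against 0.423% of the genes tested. All called genes were lower in HFD, and 0% of the genes tested were called higher. All 10 clock genes are protein-coding, and the fit on protein-coding genes alone called 0 of 11779. At an unadjusted p below 0.05, only Cry1 passed, against 8.56% of the genes tested in either direction and 3.22% among increases. DESeq2 also called 0 of the 10, against 3.58% of the genes tested, and limma voom 0 of the 10, against 0.442%. Cry1 alone had an unadjusted p below 0.05 in each, against 9.31% of the genes in DESeq2 and 8.93% in limma voom. In edgeR the lowest adjusted p of the 10 was 0.53 and the highest 0.997, and the lowest was 0.47 in DESeq2 and 0.53 in limma voom.

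**Figure D1:**
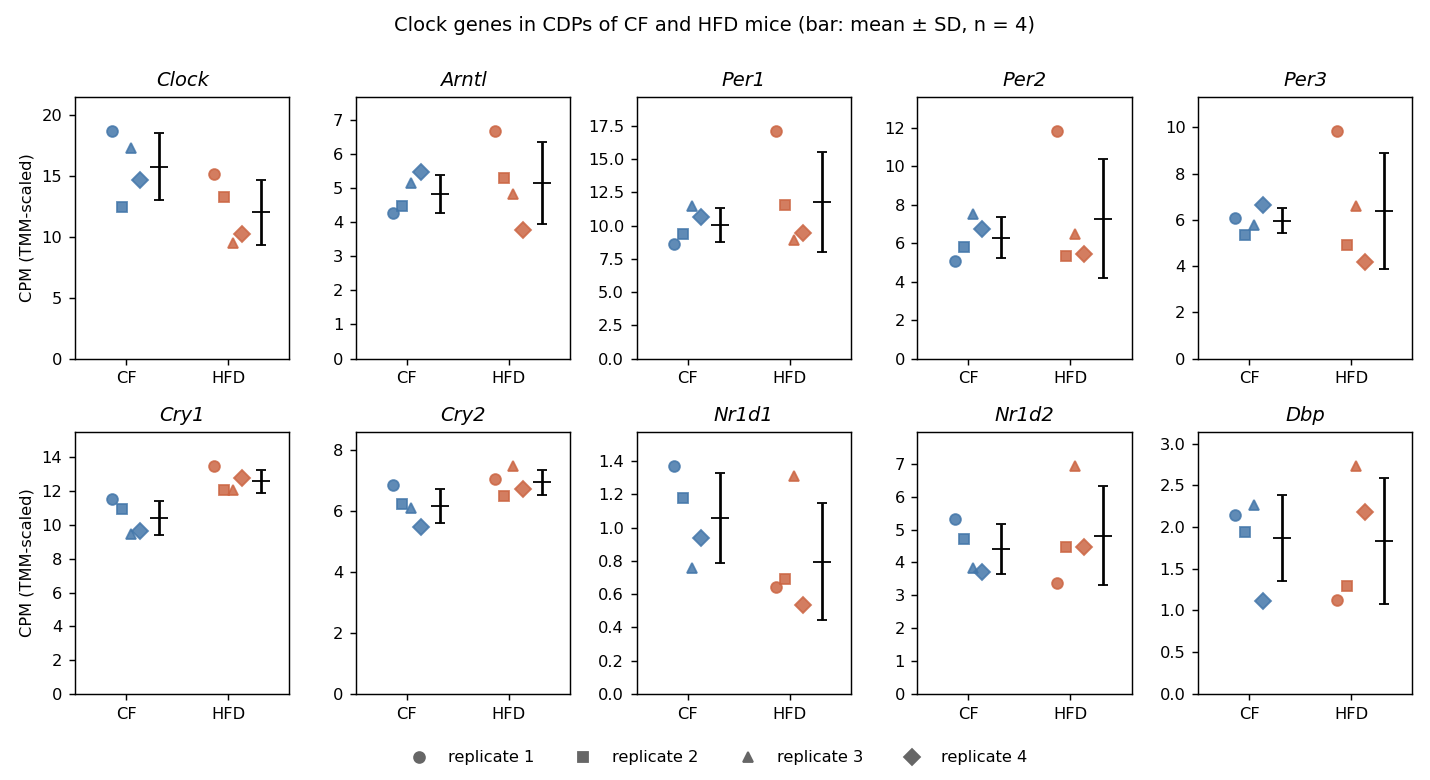
Level of each clock gene in CPM (TMM-scaled, linear axes from 0) in the 4 CF and 4 HFD libraries; marker shapes give the replicate number, and the bar beside each group is the mean ± SD. Cry1 is the gene whose HFD libraries (12.04 to 13.5 CPM) all lie above the CF libraries (9.48 to 11.6 CPM), and HFD replicate 1 is the top library for Arntl, Per1, Per2 and Per3.

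Cry1 and Cry2 encode the cryptochromes, the repressors that bind CLOCK and ARNTL most tightly. Cry1 (ENSMUSG00000020038) spans bases 85131700 to 85185064 of chromosome 10 (GRCm38, minus strand), and all positions below are in that build. It measured 13.5, 12.05, 12.04 and 12.8 CPM in HFD replicates 1 to 4, and 11.6, 10.97, 9.48 and 9.62 CPM in CF replicates 1 to 4. Every HFD library was above every CF library, which held for 2.58% of the genes tested, while 6.16% were apart in either direction. Mean levels were 12.6 ± 0.69 CPM in HFD and 10.4 ± 1.02 CPM in CF (SD, n = 4 each). On the log2 scale HFD was higher by 0.27, with a standard error of 0.11 and a 95% interval of 0.014 to 0.53 (edgeR, unadjusted p = 0.041, adjusted p = 0.53), so the difference did not pass the threshold. It stayed between 0.23 and 0.48 over 16 alternative settings (adjusted p from 0.28 to 1.0) and was called in 0 of them, and its unadjusted p was above 0.05 in 9 of the 16. Beside it, estimates were higher in HFD for 5 of 5 plasmacytoid DC genes (median 0.78), 5 of 5 B cell genes (median 0.63) and 5 of 5 erythroid genes (median 1.03), and lower for 4 of 5 conventional DC genes (median -0.52). The summed conventional DC level was 79.2 to 207 CPM in HFD, lowest in HFD replicate 1, and 176 to 273 CPM in CF. Without that library the medians were 1.08 for plasmacytoid DC, 0.41 for B cell, -0.0025 for erythroid and -0.37 for conventional DC genes, with 3 of 5 plasmacytoid DC genes (Cox6a2, Ly6d and Siglech) and 1 of 5 conventional DC genes (Itgax) called higher, against 0.214% of the genes tested. The 8 neutrophil genes then went from 8 higher (median 0.34) to 8 lower (median -1.44). The summed plasmacytoid DC level was 169 to 395 CPM in HFD and 180.0 to 227 CPM in CF, and the summed B cell level 42.3 to 103 CPM and 44.7 to 74.0 CPM. Their part in the level of Cry1 was not tested.

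Cry2, on chromosome 2 from 92403646 to 92434043, gave 7.06, 6.51, 7.48 and 6.72 CPM in HFD and 6.85, 6.23, 6.11 and 5.48 CPM in CF. The groups overlapped by CF replicate 1 alone. Its log2 fold change was 0.17, with a 95% interval of -0.12 to 0.47 (edgeR, adjusted p = 0.82). With library size as the only scaling it was 0.38 (edgeR, unadjusted p = 0.058, adjusted p = 0.37), where the all-gene median was 0.25. The annotation places 295 exon bases of the antisense transcript D930015M05Rik within its exons, and how strand was treated in counting is not given in the sources used here.

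Promoters were searched for the short elements of the clock loop. RefSeq windows (GRCm38.p6, 250 bases before to 50 after the start) were found for 9 of the 10 genes, Per2 being the exception, with 13 windows in all. The search covered both strands, for the E-box (CACGTG, its own reverse complement), the related E′-box (CACGTT), the D-box (TTATGTAA or TTACGTAA) and the RORE bound by REV-ERB proteins. E-box and E′-box differ in their last base, so no site counts as both, and no matches in the clock gene windows overlapped each other. The E-box was present for 2 genes (Cry1 and Per1), and in 7.15% of all 32851 windows. The E′-box was present for 3 genes (Cry1, Cry2 and Nr1d1, 4.68% of windows), the D-box for Per3 alone (1.06%), and a RORE for Arntl alone (0.384%). That RORE lay at bases 27 to 37 after the start in the second of 2 Arntl windows, and the first held none. The E-box of Per1 lay in the first of its 2 windows alone. Shown are bases -230 to -31 for Cry1, the gene with the lowest p, and for Per1 and Per3, which were both highest in HFD replicate 1 and hold different elements. Capitals mark the matches, in Cry1 the E′-box read from the other strand and then the E-box. The stretches are chr10:85185085-85185284 (minus strand), chr11:69098719-69098918 (plus strand) and chr4:151044696-151044895 (minus strand).
Cry1: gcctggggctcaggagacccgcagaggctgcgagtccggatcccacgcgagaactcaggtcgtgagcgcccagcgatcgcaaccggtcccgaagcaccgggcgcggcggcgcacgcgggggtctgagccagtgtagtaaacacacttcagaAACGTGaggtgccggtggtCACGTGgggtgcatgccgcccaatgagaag
Per1: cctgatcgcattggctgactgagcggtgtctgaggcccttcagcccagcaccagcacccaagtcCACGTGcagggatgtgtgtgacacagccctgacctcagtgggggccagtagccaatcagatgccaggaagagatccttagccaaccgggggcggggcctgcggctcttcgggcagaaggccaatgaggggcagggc
Per3: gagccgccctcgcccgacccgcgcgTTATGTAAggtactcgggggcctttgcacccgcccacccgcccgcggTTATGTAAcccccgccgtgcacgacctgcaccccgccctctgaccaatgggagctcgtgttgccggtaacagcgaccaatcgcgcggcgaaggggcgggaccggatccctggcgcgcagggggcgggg

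Clock and Arntl encode the activating pair. Clock (chromosome 5 from 76209868 to 76304792, minus strand) measured 15.1, 13.3, 9.47 and 10.2 CPM in HFD and 18.7, 12.5, 17.3 and 14.7 CPM in CF. HFD replicates 3 and 4 were below all CF libraries, while HFD replicates 1 and 2 lay within the CF range. Its log2 fold change was -0.39, with a standard error of 0.19 and a 95% interval of -0.83 to 0.040 (edgeR, unadjusted p = 0.070, adjusted p = 0.66). Without HFD replicate 1 it was -0.52, at an unadjusted p of 0.018 and an adjusted p of 0.22. With library size as the only scaling it was -0.19, a scaling that shifted the all-gene median from 0.055 to 0.25. Gm43658, an unclassified gene model, and the pseudogene Ube2n-ps1 lie inside Clock on the same strand and share none of its exon bases. Their log2 fold changes were -0.61 for Gm43658 and 0.16 for Ube2n-ps1 (adjusted p in edgeR 0.70 and 0.88). Without HFD replicate 2 that of Gm43658 was -0.94, at an unadjusted p of 0.0088.

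Arntl (chromosome 7 from 113207465 to 113314126, plus strand) gave 6.68, 5.29, 4.83 and 3.76 CPM in HFD and 4.26, 4.48, 5.13 and 5.46 CPM in CF. The highest and the lowest of the 8 libraries were both from HFD, and the CF libraries lay between them. HFD differed from CF by 0.086 on the log2 scale, with a 95% interval of -0.37 to 0.54 (edgeR, adjusted p = 0.96), and it was -0.065 without HFD replicate 1.

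Per1, Per2 and Per3 encode the PERIOD proteins, which carry the cryptochromes into the nucleus. Per1 also responds rapidly to cAMP and glucocorticoid signals in many cells. Per1 (chromosome 11 from 69095217 to 69109960, plus strand) measured 17.1, 11.6, 8.92 and 9.44 CPM in HFD and 8.60, 9.38, 11.5 and 10.7 CPM in CF. Per2 (chromosome 1 from 91415982 to 91459324, minus strand) measured 11.8, 5.32, 6.45 and 5.44 CPM in HFD and 5.06, 5.79, 7.53 and 6.76 CPM in CF. Per3 (chromosome 4 from 151003652 to 151044665, minus strand, inside Camta1) measured 9.85, 4.91, 6.61 and 4.17 CPM in HFD and 6.10, 5.34, 5.76 and 6.63 CPM in CF. HFD replicate 1 was the highest library for all 3 genes, and the other HFD libraries overlapped CF. Camta1, on the same strand, shares no exon bases with Per3, and its log2 fold change was -0.012 (adjusted p in edgeR 0.99).

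The log2 fold change was 0.23 for Per1, with a 95% interval of -0.26 to 0.72. It was 0.21 for Per2, with an interval of -0.42 to 0.84, and 0.098 for Per3, with an interval of -0.49 to 0.69 (edgeR, adjusted p from 0.87 to 0.97 for the 3 genes). These estimates rested on HFD replicate 1. Without it they were -0.0070 for Per1, -0.13 for Per2 and -0.19 for Per3 (edgeR, adjusted p from 0.69 to 0.99). In HFD replicate 1 the 8 neutrophil genes were each the highest of 8 libraries, as were the 5 erythroid, 3 megakaryocyte and 4 granulocyte progenitor genes. So were 4 of 5 monocyte and macrophage genes, 3 of 4 mast cell and basophil genes, 3 of 4 T and NK cell genes and 2 of 5 B cell genes. No sort gate, plasmacytoid DC or conventional DC gene was highest there, and 26.5% of all genes tested were. The summed granulocyte progenitor level there was 1120 CPM, against 212 to 699 CPM in the other libraries. The summed erythroid level there was 271 CPM, against 39.5 to 67.4 CPM in the other libraries, and the summed megakaryocyte level 38.4 CPM, against 0.83 to 12.5 CPM, where the platelet marker Pf4 was at 0 in CF replicate 1. The Lin- gate and the lysis of red cells before the sort are meant to remove mature cells of these lineages. Granulocyte monocyte progenitors are Lin- in the paper's gating, so the Lin- gate alone does not remove them. In bulk RNA, more cells of a type and more RNA per cell cannot be told apart, and the part of these cells in the Per levels was not tested.

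**Figure D2:**
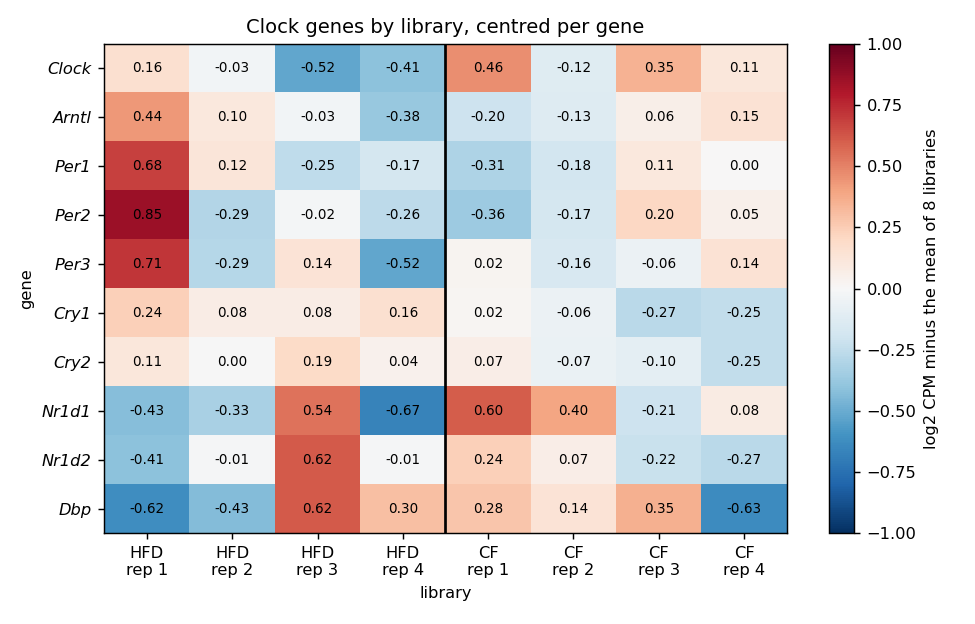
Each cell is the log2 CPM of a clock gene in one library minus the mean of that gene over the 8 libraries, with HFD left and CF right of the line; red is above and blue below the mean, and the scale runs from -1 to 1. Per1, Per2 and Per3 are 0.68, 0.85 and 0.71 above their means in HFD replicate 1, where Dbp is 0.62 below, while Dbp, Nr1d2 and Nr1d1 are 0.62, 0.62 and 0.54 above in HFD replicate 3.

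Nr1d1 and Nr1d2 encode REV-ERBα and REV-ERBβ, nuclear receptors that repress Arntl. Nr1d1 (chromosome 11 from 98767932 to 98775333, minus strand) had the fewest counts of the clock genes, 20 to 50 counts per library in HFD and 24 to 53 in CF. It measured 0.64, 0.69, 1.31 and 0.53 CPM in HFD and 1.37, 1.18, 0.76 and 0.94 CPM in CF. HFD replicates 1, 2 and 4 were below all CF libraries, and HFD replicate 3 was near the top of the CF range. Its log2 fold change was -0.41, with a standard error of 0.37 and a 95% interval of -1.26 to 0.43 (edgeR, adjusted p = 0.85). With single libraries left out it ran from -0.77 without HFD replicate 3 to -0.26 without CF replicate 1, and with library size as the only scaling it was -0.18. Thra, which encodes a thyroid hormone receptor, overlaps the 3′ end of Nr1d1 on the other strand by 263 exon bases. Thra received more counts, at 6.43 to 11.8 CPM in HFD and 5.63 to 7.85 CPM in CF, so reads in the shared bases could move the Nr1d1 counts.

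Nr1d2 (chromosome 14 from 18204054 to 18239127, minus strand) measured 3.37, 4.47, 6.93 and 4.47 CPM in HFD and 5.32, 4.71, 3.84 and 3.72 CPM in CF. HFD held both the lowest and the highest library. Its log2 fold change was 0.13, with a 95% interval of -0.42 to 0.68 (edgeR, adjusted p = 0.95), and it was -0.10 without HFD replicate 3 and 0.27 without HFD replicate 1.

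Dbp encodes a PAR bZIP activator whose transcript has one of the widest daily swings in liver and many other tissues. Dbp (chromosome 7 from 45705088 to 45710203, plus strand) had 35 to 104 counts per library, which gave 1.12, 1.29, 2.73 and 2.18 CPM in HFD and 2.14, 1.94, 2.27 and 1.12 CPM in CF. Low libraries occurred in both diets. Its log2 fold change was -0.022, with a 95% interval of -0.82 to 0.78 (edgeR, adjusted p = 1.0), and it was 0.15 without HFD replicate 1. It shares 539 exon bases with Sphk2 on the other strand, which measured 7.58 to 13.03 CPM in HFD and 8.24 to 13.4 CPM in CF.

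**Figure D3:**
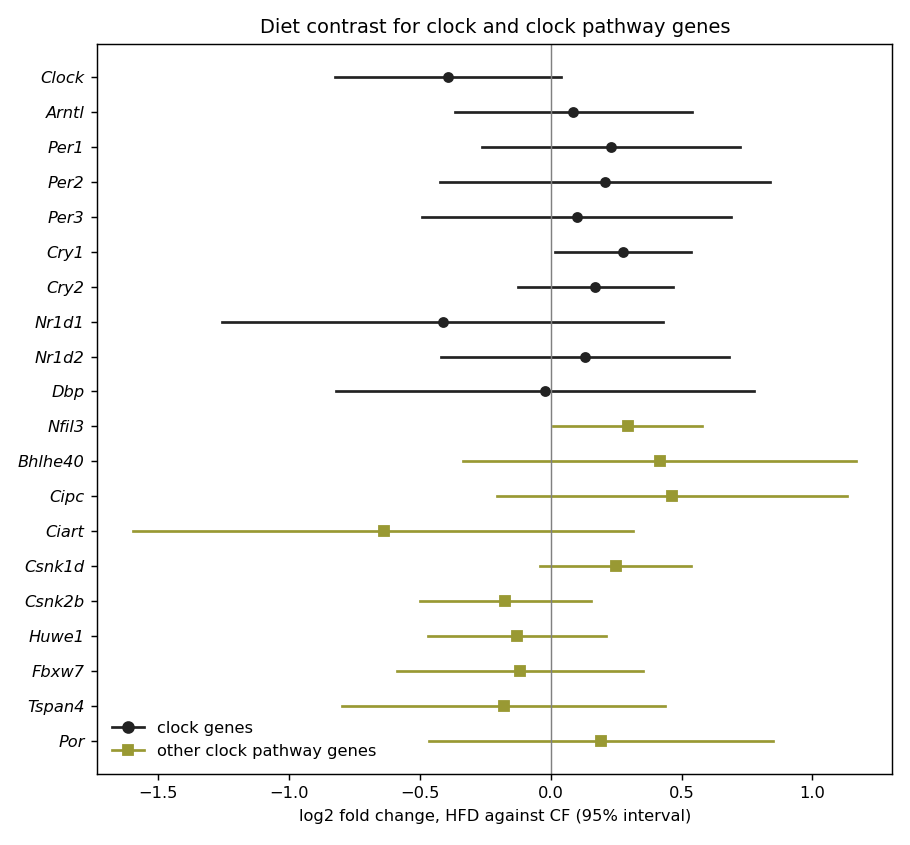
Log2 fold change of HFD against CF with its 95% interval from the edgeR fit for the clock genes (black circles) and for the other clock pathway genes that are named (olive squares). The intervals of Cry1 (0.014 to 0.53) and Nfil3 (0.0094 to 0.58) lie above 0 before adjustment, and those of the other genes drawn include 0.

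The clock genes differed in how closely replicates of a diet resembled each other. The coefficient of variation between replicates, as the root mean square of the values in HFD and CF, was 7.7% for Cry2 and 7.9% for Cry1, at counting errors of 6.6% and 5.0%. Counting error here treats reads as independent molecules, which amplified libraries do not guarantee, so it covers counting alone. It was 18.5% for Arntl, 19.99% for Clock, 24.3% for Per1, 25.3% for Nr1d2, 28.7% for Per3 and 32.5% for Per2, at counting errors of 4.5% to 7.8%. Without HFD replicate 1, a comparison added after the data were seen, it was 13.4% for Per1, 14.4% for Per2 and 18.1% for Per3. The wide spread of Per1 and Per2 thus rested on that library, and that of Per3 in part. Within HFD, Per3 still varied by 23.9% without it, against 9.1% in CF. Dbp and Nr1d1 spread most, with 35.2% and 36.0%, at counting errors of 12.3% and 17.4%. Their edgeR dispersions ranked at percentiles 76.8 and 76.1 of all genes tested, while Cry1 ranked at percentile 12.9 and Cry2 at 21.6.

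**Figure D4:**
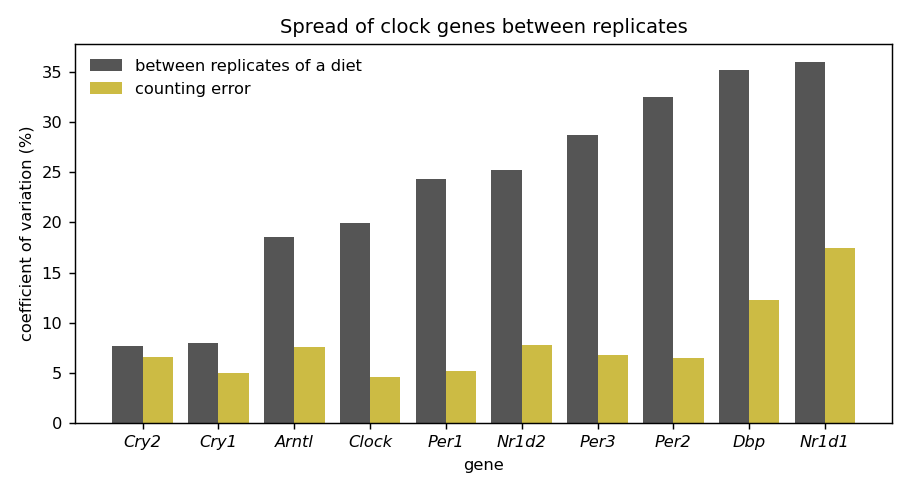
Bars give the coefficient of variation of CPM between replicates of a diet (grey, root mean square of HFD and CF, all 8 libraries) and the counting error expected from the mean count (yellow), in percent, for each clock gene in ascending order of spread. The order runs from Cry2 at 7.7% to Nr1d1 at 36.0%, and the counting error is largest for Nr1d1 at 17.4%.

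Divided by exon length, the clock genes were ranked by level in CPM per kilobase over the 8 libraries. Cry1 was highest with 3.44 ± 0.42 (SD), followed by Per1 with 1.94 ± 0.49, Per2 with 1.16 ± 0.38, Cry2 with 1.04 ± 0.10 and Clock with 1.01 ± 0.23. Nr1d2 had 0.85 ± 0.21, Arntl 0.66 ± 0.12, Per3 0.64 ± 0.18, Dbp 0.62 ± 0.20 and Nr1d1 0.30 ± 0.10. Without HFD replicate 1, Dbp (0.65 ± 0.19) stood above Arntl (0.63 ± 0.081) and Per3 (0.59 ± 0.094), while the other ranks were as over all 8. The order also differed between the diets, where Clock ranked above Per2 and Cry2 in CF (1.151, 1.07 and 0.98 CPM per kilobase) and below both and Nr1d2 in HFD (0.88, against 1.24, 1.10 and 0.89). Only the ranks of Cry1, Per1, Arntl and Nr1d1 were the same in both diets. The ranges of every gene and its neighbour in this order overlapped over the 8 libraries. Cry1 and Per1 overlapped through HFD replicate 1 alone, and in the other 7 libraries Cry1 was at least 2.84 and Per1 at most 2.06 CPM per kilobase. Exon length is the union of annotated exons, so the ranking is approximate where a gene uses few of them.

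The textbook phase relation of Arntl to 4 of the genes was examined across the 8 libraries, on log2 CPM with exact permutation tests over 4 relations. Arntl rose with Per2 (Pearson r = 0.82, exact permutation p = 0.014, adjusted p = 0.043; Spearman rho = 0.67, p = 0.083, adjusted p = 0.15) and with Per3 (r = 0.81, p = 0.022, adjusted p = 0.043; rho = 0.64, p = 0.096, adjusted p = 0.15). Against Dbp it ran the other way without passing the threshold (r = -0.70, exact permutation p = 0.051, adjusted p = 0.068; rho = -0.62, p = 0.12, adjusted p = 0.15). Against Nr1d1 r was -0.19 (exact permutation p = 0.67, adjusted p = 0.67; rho = -0.24, p = 0.58, adjusted p = 0.58). Without the libraries farthest from the median of Arntl, HFD replicates 1 and 4, r was 0.55 for Per2, -0.0016 for Per3, -0.61 for Dbp and -0.79 for Nr1d1 over 6 libraries. The relation to Per3 therefore rested on those 2 libraries, while that to Per2 kept its direction (rho = 0.54) without passing the threshold. Without HFD replicate 1 alone they were 0.57 for both genes (exact permutation, adjusted p = 0.26 for both). With each library left out in turn, the adjusted p stayed below 0.05 in 2 of 8 cases for Per2 and 1 of 8 for Per3. Against Nr1d1, r was -0.83 without HFD replicate 4 (exact permutation, adjusted p = 0.036) and 0.11 without HFD replicate 1. No value was computed within a diet, which holds 4 libraries.

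**Figure D5:**
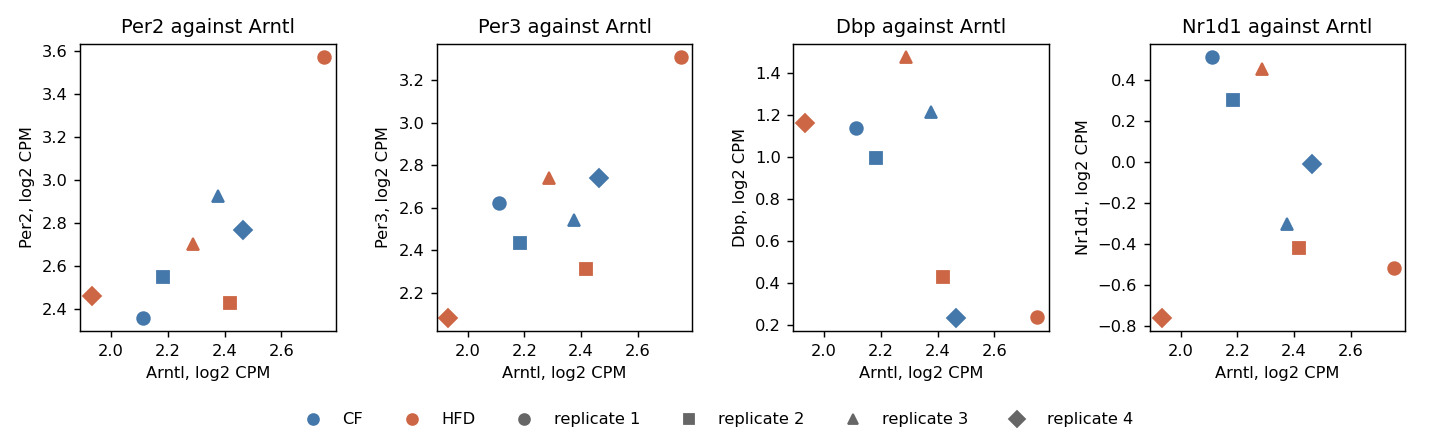
Each point is a library, with Arntl on the horizontal and Per2, Per3, Dbp or Nr1d1 on the vertical axis, both in log2 CPM; colour gives the diet and shape the replicate number. HFD replicate 1 sits alone at the upper right for Per2 (r = 0.82) and Per3 (r = 0.81), and the libraries with low Dbp are those with high Arntl (r = -0.70).

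The count ratio of a gene to Arntl in the same library does not depend on scaling. On the log2 scale, Dbp to Arntl was -1.55 ± 0.89 (SD, n = 4) in HFD and -1.42 ± 0.59 in CF. Nr1d1 to Arntl was -2.75 ± 0.63 in HFD and -2.22 ± 0.52 in CF. The ratios of Per1, Per2, Per3 and Cry1 to Arntl differed between the diet means by -0.039 (Per3) to 0.21 (Cry1). All 6 ratios overlapped between the diets, Cry1 included (1.01 to 1.76 in HFD against 0.82 to 1.44 in CF). With HFD replicate 1 left out, the difference between diet means turned from -0.14 to 0.20 for Dbp and from 0.077 to -0.050 for Per2, and it was -0.32 for Nr1d1, 0.064 for Per1, -0.14 for Per3 and 0.32 for Cry1, with all 6 still overlapping.

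HFD replicate 1 was the highest of 8 libraries for 5 of the 10 clock genes (Arntl, Per1, Per2, Per3 and Cry1), against 26.5% of all genes tested. It was the lowest for 1 of the 10 (Nr1d2), against 21.1%. HFD replicate 3 was the highest for Cry2, Nr1d2 and Dbp, and HFD replicate 4 the lowest for Arntl, Per3 and Nr1d1. The shares of all genes for these 2 libraries were not computed, so neither count can be read as a trait of the clock genes.

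Other genes of the clock pathway were not called either. Of 43 listed, 38 were tested, and the others were not analysed here. In edgeR 0 of the 38 were called (0.423% of the genes tested), and Nfil3 alone had an unadjusted p below 0.05, as it had in DESeq2 and limma voom, which also called 0. Estimates were higher in HFD for 23 and lower for 15, and the median log2 fold change was 0.023, against 0.055 over all genes tested. Among the other clock transcription factors, all 6 tested had a higher estimate in HFD, from 0.048 to 0.55, as had 59.7% of all genes tested. The 0.55 is that of Bhlhe41, which was at 0 in CF replicate 2 and gave 0.15 without that library, 0.87 without CF replicate 1 and 1.64 in limma voom. Leaving out HFD replicate 1, 4 of the 6 were higher, with Hlf at -0.31 and Rora at -0.066, and these 2 were also below 0 in limma voom. Nfil3, a repressor that competes with DBP at D-boxes, measured 15.7, 13.2, 16.8 and 16.3 CPM in HFD and 11.96, 14.2, 13.3 and 11.2 CPM in CF. HFD replicate 2 lay within the CF range. Its log2 fold change was 0.29, with a standard error of 0.13 (edgeR, unadjusted p = 0.044, adjusted p = 0.56), and its unadjusted p was above 0.05 in 8 of the 16 alternatives. For Bhlhe40, an E-box repressor, it was 0.42 (adjusted p = 0.83), over a wide HFD range of 3.25 to 11.04 CPM. It was 0.14 without HFD replicate 1, which held the highest level, and 0.66 without HFD replicate 3.

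Tef, a relative of Dbp, was picked out after its values were seen. It measured 0.74, 8.40, 9.97 and 7.77 CPM in HFD and 2.76, 1.94, 8.12 and 6.58 CPM in CF, so that low libraries occurred in both diets, and its dispersion ranked at percentile 95.01. The other named genes were not called. On the log2 scale HFD minus CF was -0.64 for Ciart, a repressor of CLOCK and ARNTL, and 0.46 for Cipc, which binds CLOCK (adjusted p in edgeR 0.80 and 0.78). Among the kinases of PER and CRY, Csnk1d had 0.25 and Csnk2b -0.17 (adjusted p = 0.69 and 0.84). Of the ubiquitin ligases, Huwe1 had -0.13 and Fbxw7 -0.12 (adjusted p = 0.90 and 0.94), and of the rhythmic output transcripts, Tspan4 had -0.18 and Por 0.19 (adjusted p = 0.93 for both). Single libraries moved several of these values: without HFD replicate 1 Tspan4 was -0.011, Por -0.22, Huwe1 -0.056 and Csnk2b -0.29, and without HFD replicate 3 Tspan4 was -0.50 and Csnk2b -0.081. Fbxw7 ran from -0.26 without CF replicate 2 to -0.0027 without CF replicate 4, Csnk1d was 0.16 without CF replicate 1, and Cipc ran from 0.20 without HFD replicate 4 to 0.74 without CF replicate 4.

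Genes that respond within minutes to handling or hormones were set beside Per1, which shares such inputs. All 10 immediate early genes listed (Fos, Egr1 and others) had a lower estimate in HFD, against 40.3% of all genes tested. The median of the list was -0.93 on the log2 scale, 3 had an unadjusted p below 0.05 in edgeR, against 5.34% of the genes tested that were lower at that p, and the lowest adjusted p was 0.14. In the 7 libraries left without HFD replicate 1 the median was -1.86, 10 of 10 had an unadjusted p below 0.05 (9.76% of the genes tested then) and 7 of 10 were called lower (1.05%). Their summed level was 132 to 585 CPM in HFD and 424 to 642 CPM in CF, and HFD replicate 1 held the 585 CPM. Atf3 was at 0 in HFD replicate 4. Of 5 glucocorticoid targets, 1 of which (Tsc22d3) is also in the pathway list, 4 had a lower estimate in HFD. Fkbp5 went the other way, with every HFD library above every CF library (log2 fold change 0.39, unadjusted p = 0.021 in edgeR), and 1 of the 4 lower genes had an unadjusted p below 0.05. That gene, Errfi1, had every HFD library below every CF library (log2 fold change -1.70). Over all genes tested, 2.58% had every HFD library above every CF library, and in 6.16% the diets were apart in either direction. The median of the 5 was -0.22 (-0.87 without HFD replicate 1, where Sgk1 was called lower), the lowest adjusted p over the 8 libraries was 0.21, and their summed level was highest in HFD replicate 1, with 114 CPM against 56.7 to 84.2 CPM in the other libraries. Their part in the level of Per1 was not tested.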

How the data were processed

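RNA of sorted CDPs was sequenced in 8 libraries. According to the methods and the labels, the authors trimmed reads with cutadapt, aligned them with HISAT2 to GRCm38, kept uniquely mapped pairs and counted them per gene with StringTie on GENCODE. The deposited values are raw counts per gene, without normalization, and no gene has fewer than 29 counts in its highest library. Columns were matched to samples by the sample number in the titles. GENCODE vM21 gave names, positions and exon lengths for 16067 of 16119 genes.

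Genes were kept by filterByExpr (15837), scaled by TMM and compared by the robust quasi-likelihood test of edgeR 4.0.16 in R 4.3.3, with diet as the only term and Benjamini-Hochberg adjustment over all genes tested (threshold 0.05). Intervals are 95% and come from the fit's coefficient and F statistic. Log2 CPM used a prior count of 2. Counting error covers counting alone. Alternatives were RLE and library size scaling, DESeq2 1.42.0, limma voom (limma 3.58.1), other filters, protein-coding genes alone, a replicate block, and each library left out. Tested on counts simulated for HFD against CF (15763 genes), the fit called 21 of 100 genes changed 2-fold, 79 of 97 changed 4-fold and 6 unchanged genes. Figures used matplotlib 3.10.9.

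The clock genes and the lists were chosen with earlier results of these data known. Named are all clock genes, genes overlapping them, pathway genes with an unadjusted p below 0.05 and the 2 lowest p of each pathway group. Tef, and the spread, level order and list medians without HFD replicate 1, were added after the data were seen.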

Additional observations from a re-analysis of the deposited data

Results flagged for a closer look

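Single libraries were compared with the other 3 of their diet for the named genes, some added genes and the ratios to Arntl. Of 76 groups in all, 6 held a library far from the rest. Tef, Bhlhe41, Hlf, Rora, Fkbp5, Sgk1 and Flt3 were added outside the naming rule, Tef after its values were seen. The 6 can therefore not be set against a chance rate. Por, which encodes the electron donor of cytochrome P450 enzymes, had 4.82 log2 CPM in HFD replicate 1 and 3.53 to 3.67 in the other HFD libraries. The log2 count ratio of Dbp to Arntl was -2.29 in CF replicate 4 and -1.21 to -0.99 in the other CF libraries. Tef had -0.33 log2 CPM in HFD replicate 1 and 2.97 to 3.33 in the other HFD libraries. Bhlhe41, which had no counts in CF replicate 2, was at -4.14 log2 CPM there and 0.43 to 0.96 in the other CF libraries, and in HFD it was at 0.25 in replicate 2 and 0.98 to 1.03 in the others. Fkbp5 had 5.26 log2 CPM in CF replicate 3 and 5.15 to 5.17 in the other CF libraries.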

How the results depend on the processing

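The clock genes called remained 0 of 10, and the pathway genes called 0 of 38 or fewer tested, under all 16 alternatives. Genes lower in HFD numbered 67, and 0 were higher. DESeq2 gave 503 and 64, protein-coding genes alone 0 lower, and library size alone 10 higher. With single libraries left out the counts ran from 0 to 166 lower and from 0 to 34 higher, with 166 and 34 without HFD replicate 1, 154 lower without CF replicate 4, and 0 or 1 without any other library. Same-numbered libraries did not deviate together (r from -0.44 to -0.078), and the fit with the replicate number as a block called 0 lower.

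With library size alone the sign turned for Dbp (0.23), Csnk2b (0.011), Huwe1 (0.063), Fbxw7 (0.050), Tspan4 (0.023) and Camta1 (0.18). It turned for Per3 in limma voom (-0.0013), and for Sphk2 with RLE factors (-0.010), DESeq2 (-0.011), limma voom (-0.0079) and protein-coding genes alone (-0.041). With single libraries left out, estimates that changed sign ran from -0.065 to 0.17 (Arntl), -0.0070 to 0.34 (Per1), -0.13 to 0.33 (Per2), -0.19 to 0.22 (Per3), -0.28 to 0.15 (Dbp), -0.10 to 0.27 (Nr1d2), -0.22 to 0.32 (Por), -0.11 to 0.14 (Sphk2), -0.062 to 0.033 (Camta1) and -0.0058 to 0.23 (Ube2n-ps1). The correlation of Arntl ran from 0.57 to 0.92 with Per2, 0.57 to 0.92 with Per3, and -0.83 to 0.11 with Nr1d1. Other causes of these shifts were not tested. Counts were lowest for Nr1d1 (20 to 53 per library) and Dbp (35 to 104).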
